A study of Homo sapiens with 6 samples.

Results

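Splicing factors and 3′ end processing factors are described here as a set of 49 listed genes among the 62696 gene rows of the count tables. The genes were taken by symbol from a list, by a rule that uses no measured value, although the list itself was drawn up with earlier results of these data known, and all 49 had enough reads to be tested. They fall into 6 groups by role: 9 SR proteins, 9 heterogeneous nuclear ribonucleoproteins (hnRNPs), 6 core spliceosome components, 3 nuclear speckle proteins, 4 CDC-like kinases (CLKs) and 18 cleavage and polyadenylation factors. Total RNA was sequenced from C4-2, an established human cell line of castration-resistant prostate cancer, to compare gene expression with and without the kinase CDK12. The knockout cells carried a CRISPR-Cas9 knockout of CDK12 (CDK12KO, 3 libraries), and the comparison cells were wild type with the vector (VEC, 3 libraries). The culture medium was RPMI1640 with serum (fetal bovine) for both, and no drug treatment is given for either group. The labels do not say whether the knockout is 1 clone or a pool, or whether libraries of 1 group came from separate cultures, so the p-values rest on a spread among libraries that may be technical. Loss of CDK12 and any other difference between the 2 lines cannot be told apart.

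Introns are removed by the spliceosome, in which U1 and U2 small nuclear ribonucleoproteins (snRNPs) recognise the 5′ splice site and the branch site. SR proteins bind exons and mostly promote splice site use, many hnRNPs repress it, and CLK kinases phosphorylate SR proteins and so release them from nuclear speckles. The 3′ end of most messenger RNAs is made by cleavage and polyadenylation, in which the CPSF complex reads the poly(A) signal and cuts, CstF binds downstream U- or GU-rich sequence, and CFIm and CFIIm complete the machinery. CDK12, with its partner cyclin K, phosphorylates the C-terminal domain of RNA polymerase II, the platform on which many of these factors travel, and loss of CDK12 is known for the use of early, intronic poly(A) sites in long genes.

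The libraries held 26357250 to 30732841 reads in CDK12KO and 24660798 to 25879375 in VEC, of which 18333400 to 21590817 and 16617644 to 18178467 were counted in genes. CDK12KO library 2 stood apart, with a Pearson correlation of 0.916 to 0.950 with the other libraries (log2 CPM, CPM being reads relative to a common library size), against 0.977 to 0.990 among the other 5. It also had 3.62% of its reads outside annotated exons and 14.4% in more than 1 gene, against 5.42 to 7.45% and 11.1 to 12.2% in the other 5. Calls and group medians of the log2 fold change are therefore given with and without CDK12KO library 2. Levels per kilobase are given only with it. CDK12 itself had 60.8, 56.9 and 56.5 CPM in CDK12KO, against 60.2, 48.0 and 57.1 CPM in VEC (edgeR adjusted p = 0.709), so the RNA level does not tell the lines apart, and a gene count does not show whether the reads carry an edit. All 9 markers of prostate luminal epithelium were detected in every library, with sums of 7299 to 10113 CPM in CDK12KO and 8461 to 8577 CPM in VEC. Of 9 immune, endothelial and fibroblast markers CD3E, DCN and PECAM1 were at 0 in every library, and the 9 summed to 30.3 to 40.1 CPM in CDK12KO and 26.8 to 27.6 CPM in VEC; the part of these levels in the results below was not tested.

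Without CDK12KO library 2, 4 of the 49 genes differed between the lines, all by less than 0.5 on the log2 scale. Transcripts of the speckle scaffold proteins SRRM2 and SON fell by 0.28 and 0.28 (log2 fold change, CDK12KO over VEC). Those of the kinase CLK1 and of CPSF3, the endonuclease that cuts the pre-mRNA, rose by 0.31 and 0.30. That is 8.16% of the genes, where 19.1% of all 16339 tested genes, 10.2% higher and 8.88% lower, passed the same test (edgeR quasi-likelihood, Benjamini-Hochberg adjusted p under 0.05); the difference between these shares was not tested. These counts rest on single libraries: 14 of 49 (28.6%, where 29.3% of all genes) passed in edgeR without VEC library 2 as well, 2 without VEC library 1 or 3, 1 without CDK12KO library 3, and 0 without CDK12KO library 1, where 7 had an unadjusted p under 0.05. The 2 of 49 are 4.08%, where 13.5% of all genes passed without VEC library 1 and 13.4% without VEC library 3. The fits that also leave out CDK12KO library 1 or 3 keep 1 CDK12KO library. The share of all genes that passed fell in those fits too, so their counts are not a result about these genes. Without scaling factors 4 of 49 passed (8.16%, where 17.6% of all genes), 1 higher and 3 lower, with SRSF1 in place of CLK1. With a block for the replicate number 20 of 49 (40.8%, where 33.9% of all genes) passed without CDK12KO library 2, so the order of the shares changed with the setting. VEC library 2 is alone in its block in that fit and has no part in the estimated difference between the lines. With all 6 libraries none of the 49 passed in edgeR, where 0.596% of 15783 genes did, 0.418% higher and 0.177% lower. In that fit 2 had an unadjusted p under 0.05 (CPSF3 and CSTF3), where 21.7% of all tested genes did. Without CDK12KO library 2 the edgeR fit had 13 of 49 at an unadjusted p under 0.05, where 31.7% of all tested genes did. These 2 shares also stand beside the unadjusted counts of the role groups below, and the differences were not tested. With all 6 libraries DESeq2 and limma-voom each called 0 of the 49, where they called 6.21% and 0.665% of all genes. The heat map of all 49 genes shows the pale columns of CDK12KO libraries 1 and 3 beside the strongly coloured column of CDK12KO library 2.

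**Figure D1:**
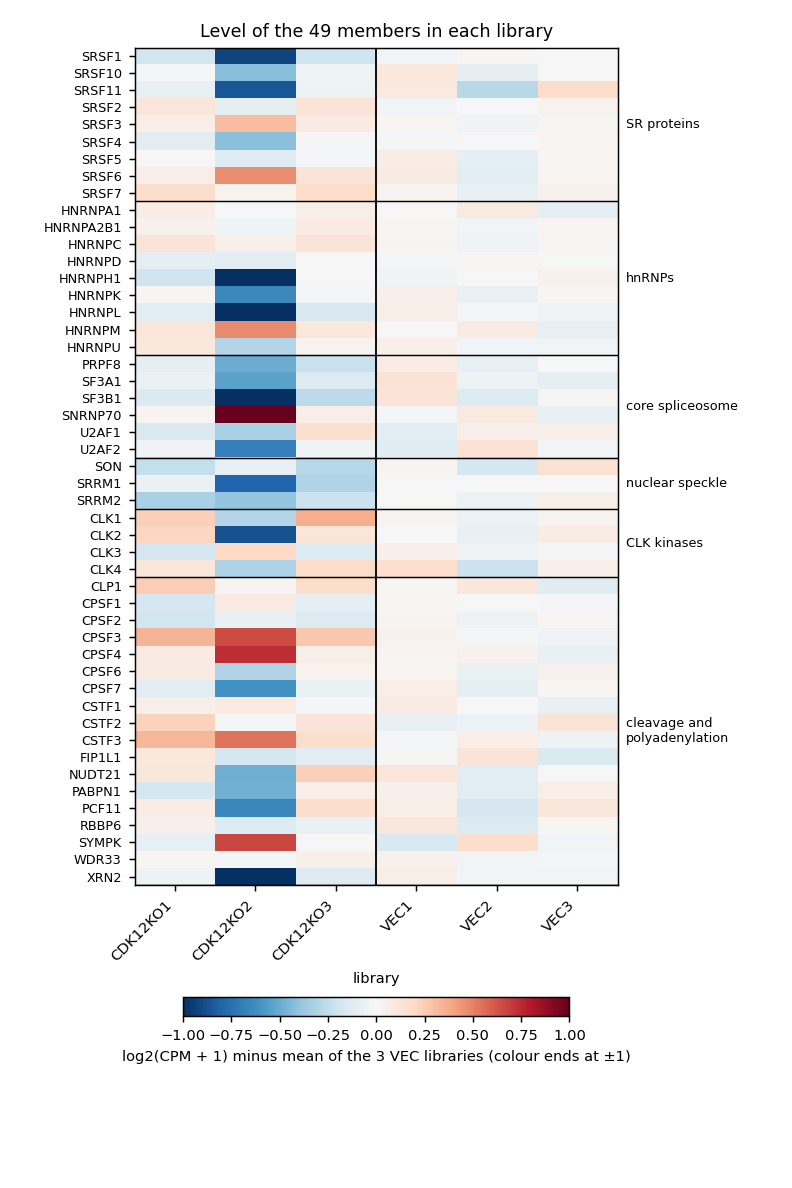
Level of each of the 49 genes in each library, as log2(CPM + 1) minus the mean of the 3 VEC libraries. Rows are genes ordered by role, columns are the 6 libraries with CDK12KO at the left, blue is lower and red is higher than the VEC mean, and CDK12KO library 2 is the most coloured column, with SNRNP70 the darkest red and HNRNPL among the darkest blue. The colour scale ends at 1 log2 unit to either side.

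The 150 bases before the first start that RefSeq lists for the 4 genes that passed are shown because these genes differ in what their promoters contain. Sequences are from RefSeq on GRCh38.p14, read 5′ to 3′ on the gene's strand up to that start. The gene spans given further on are GENCODE 29's, which begin further upstream, so the SON and SRRM2 stretches lie inside their gene's span, and the last 86 bases of the CLK1 and CPSF3 stretches do. Capitals mark motifs found on either strand: the GC box GGGCGG, the CCAAT box CCAAT, the ETS core CGGAAG, the cAMP response element core TGACGT and the TATA box TATAAA. On the opposite strand the GC box reads CCGCCC and the CCAAT box reads ATTGG, and no 2 of the motifs overlap in these 4 sequences. CLK1 (chr2:200864659-200864808, minus strand) holds 2 GC boxes, CPSF3 (chr2:9423504-9423653, plus strand) a cAMP response element core and an ETS core, SON (chr21:33542888-33543037, plus strand) 3 CCAAT boxes, and SRRM2 (chr16:2752488-2752637, plus strand) none of the 5 motifs.
CLK1: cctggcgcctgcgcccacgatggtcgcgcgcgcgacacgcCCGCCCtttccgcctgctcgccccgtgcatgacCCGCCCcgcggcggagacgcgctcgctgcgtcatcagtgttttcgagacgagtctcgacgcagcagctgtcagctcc
CPSF3: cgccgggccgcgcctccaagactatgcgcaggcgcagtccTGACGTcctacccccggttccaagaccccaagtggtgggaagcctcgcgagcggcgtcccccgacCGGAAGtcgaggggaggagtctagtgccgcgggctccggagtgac
SON: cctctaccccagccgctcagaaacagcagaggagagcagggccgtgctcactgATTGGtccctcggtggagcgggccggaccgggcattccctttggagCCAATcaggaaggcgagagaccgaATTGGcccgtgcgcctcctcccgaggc
SRRM2: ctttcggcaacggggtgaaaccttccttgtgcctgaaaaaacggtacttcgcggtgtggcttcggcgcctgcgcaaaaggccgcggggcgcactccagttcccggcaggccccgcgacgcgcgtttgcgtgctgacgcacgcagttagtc
None of the 4 holds a TATA box, and their GC content was 72.0% in CLK1, 70.7% in CPSF3, 66.0% in SON and 64.7% in SRRM2. A promoter was listed for 46 of the 49 genes. Among those 46, 25 (54.3%) held a GC box, against 36.7% of all 27305 listed promoters, 19 (41.3%) an ETS core, against 13.0%, and 14 (30.4%) a CCAAT box, against 24.4%. The cAMP response element core stood in 10 (21.7%), against 5.65% of all promoters, and the TATA box in 2 (4.35%), against 7.05%. These matches describe letters only and were not tested against the expression values.

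The genes differed widely in level, which was compared per kilobase of merged exon length. The CDK12KO levels are means of all 3 libraries, library 2 included. HNRNPA1, an abundant hnRNP that binds exonic silencers, was highest at 329 CPM per kb in CDK12KO and 320 CPM per kb in VEC, and the kinase gene CLK4 was lowest at 0.964 and 0.961 CPM per kb. The order of the group medians was the same in both lines at the top and at the bottom. The hnRNPs had 77.8 CPM per kb in CDK12KO and 72.4 in VEC, the SR proteins 28.3 and 29.3, the core spliceosome genes 23.8 and 28.4, and the CLK kinases 4.84 and 4.66. The cleavage and polyadenylation factors had 10.6 and 9.42 CPM per kb and the speckle genes 8.78 and 11.3. These 2 groups thus stood in the opposite order in the 2 lines, but only with library 2 in the CDK12KO means. In CDK12KO libraries 1 and 3 alone the speckle median was the higher one, as in VEC. Differences between groups in level were not tested. Counts per gene and library ran between 94 (CLK4) and 36175 reads.

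The SR proteins had 0 of 9 genes past the threshold in edgeR in either fit, with 2 at an unadjusted p under 0.05 without CDK12KO library 2 (SRSF1 and SRSF7) and 0 with all libraries, and 0 in DESeq2 and limma-voom. Their median log2 fold change was -0.02 without CDK12KO library 2 and -0.05 with it, beside medians of -0.01 and 0.00 for all tested genes. SRSF1, a founding SR protein and a known oncogenic splicing factor, had 74.9, 44.5 and 74.1 CPM in CDK12KO, against 83.7, 86.3 and 85.3 CPM in VEC. All 3 CDK12KO libraries were below all 3 VEC libraries, and library 2 was the lowest. Its log2 fold change was -0.20 ± 0.07 (SE) without library 2, with an edgeR adjusted p of 0.0587, and -0.40 ± 0.20 with all libraries (edgeR adjusted p = 0.274). The exons of SRSF1 overlap other genes over 60.7% of their length, and reads shared with a neighbour are not in its count.

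SRSF7, an SR protein with a zinc knuckle, had 141, 128 and 142 CPM in CDK12KO, against 127, 118 and 128 CPM in VEC. Libraries 1 and 3 of CDK12KO lay above all VEC libraries and library 2 lay at the upper end of the VEC range (log2 fold change 0.18 ± 0.07 without library 2, edgeR adjusted p = 0.0727). SRSF3, the smallest SR protein and the one with the highest mean CPM here, had 375, 445 and 379.9 CPM in CDK12KO, against 363, 350.4 and 362 CPM in VEC. Its groups do not overlap, and its log2 fold change without library 2 was 0.07 ± 0.06 (edgeR adjusted p = 0.476). SRSF2, SRSF4, SRSF5, SRSF6, SRSF10 and SRSF11 did not pass either, and the 95% intervals of all 9 genes without library 2 lay between -0.346 and 0.317.

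The hnRNPs likewise had 0 of 9 genes past the threshold in edgeR in either fit, with 1 at an unadjusted p under 0.05 without CDK12KO library 2 (HNRNPL) and 0 with all libraries, and 0 in DESeq2 and limma-voom. Their median log2 fold change was 0.06 without library 2 and -0.04 with it. HNRNPA1 had 1708, 1631 and 1693 CPM in CDK12KO, against 1627, 1727 and 1529.6 CPM in VEC, and the groups overlap. HNRNPC, which binds uridine tracts and keeps cryptic exons out of mRNA, had 579, 547 and 579 CPM in CDK12KO, against 538, 517 and 532 CPM in VEC. All 3 CDK12KO libraries were the higher ones, by 0.12 ± 0.06 on the log2 scale without library 2 (edgeR adjusted p = 0.169). HNRNPA1 has many processed pseudogenes, and its count leaves out multimapping reads.

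HNRNPL, which binds CA repeats and regulates exon inclusion, was the gene on which CDK12KO library 2 departed most. It had 171, 38.8 and 166 CPM in CDK12KO, against 193, 183 and 181 CPM in VEC. Library 2 held 617 reads of it and lay 2.12 log2 units below the mean of libraries 1 and 3, while those 2 libraries lay just under the VEC range. The log2 fold change was -0.14 ± 0.07 without library 2 (edgeR adjusted p = 0.137) and -0.56 ± 0.49 with it (edgeR adjusted p = 0.463). HNRNPH1, a binder of G runs, also had its lowest value in library 2, with 174, 96.6 and 201 CPM in CDK12KO, against 194, 199 and 206 CPM in VEC.

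The core spliceosome genes had 0 of 6 past the threshold in edgeR without CDK12KO library 2, with 2 at an unadjusted p under 0.05 (SF3B1 and PRPF8), and 0 of 6 on both measures with all libraries. DESeq2 and limma-voom called 0 as well. SF3B1, the U2 snRNP subunit that clamps the branch site, had 141, 74.2 and 129.9 CPM in CDK12KO, against 171, 142 and 157 CPM in VEC. The groups do not overlap, although CDK12KO library 1 and VEC library 2 lie close together, and the log2 fold change was -0.21 ± 0.08 without library 2 (edgeR adjusted p = 0.0618). PRPF8, the U5 scaffold at the catalytic centre, had 361, 274 and 332 CPM in CDK12KO, against 408, 366 and 389 CPM in VEC. It too had all CDK12KO libraries below all VEC libraries (log2 fold change -0.17 ± 0.07 without library 2, edgeR adjusted p = 0.0936).

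U2AF2, which binds the polypyrimidine tract, had 487, 309.5 and 487 CPM in CDK12KO, against 459.5, 553 and 489 CPM in VEC, and libraries 1 and 3 fall inside the VEC range. SNRNP70, the U1-70K protein of the U1 snRNP, was picked after its values were seen because it moved most in the other direction. It had 296, 640.4 and 303 CPM in CDK12KO, against 286, 309.9 and 276 CPM in VEC. Only library 2 stood high, by 1.09 log2 units over libraries 1 and 3, and without it the log2 fold change was 0.04 ± 0.07 (edgeR adjusted p = 0.736). The median over the 6 genes was -0.08 without library 2 and -0.23 with it.

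Transcripts of both large nuclear speckle proteins fell without CDK12KO library 2. The 3 speckle genes were the group with the lowest median log2 fold change, -0.28 without library 2 and -0.31 with it. SRRM2 (chr16:2752329-2772538 on GRCh38), a giant serine- and arginine-rich protein of the catalytic spliceosome, had 499, 477 and 541 CPM in CDK12KO, against 628, 603 and 651 CPM in VEC. Every CDK12KO library was below every VEC library, including library 2. Its log2 fold change was -0.28 ± 0.07 (95% interval -0.413 to -0.138, edgeR adjusted p = 0.00600) without library 2 and -0.31 ± 0.14 with it (edgeR adjusted p = 0.248). The promoter printed above for this gene is the one without any of the 5 motifs.

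SON (chr21:33542618-33577481), which with SRRM2 forms the core of the speckle and aids splicing of weak introns, had 112, 125 and 108 CPM in CDK12KO, against 135, 117 and 147 CPM in VEC. CDK12KO library 2 lay inside the VEC range and libraries 1 and 3 lay below it. The log2 fold change was -0.28 ± 0.08 (95% interval -0.450 to -0.103, edgeR adjusted p = 0.0245) without library 2 and -0.21 ± 0.13 with it (edgeR adjusted p = 0.353). SRRM1, an exon junction-associated coactivator of splicing, had 87.9, 52.7 and 74.5 CPM in CDK12KO, against 92.3, 92.0 and 92.4 CPM in VEC. All its CDK12KO values were the lower ones, and it missed the threshold (-0.19 ± 0.08 without library 2, edgeR adjusted p = 0.102).

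The calls of SRRM2 and SON depend on single libraries. SRRM2 passed in 10 of 11 alternative settings without CDK12KO library 2 and missed the threshold when CDK12KO library 1 was left out as well (edgeR adjusted p = 0.176, with a range of 7.55e-13 to 0.176 over the alternatives). SON passed in 7 of 11, with a range of 6.32e-10 to 0.224. It missed the threshold without VEC library 1 (edgeR adjusted p = 0.0849), VEC library 3 (0.134), CDK12KO library 1 (0.105) or CDK12KO library 3 (0.224).

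The 4 CLK kinases had log2 fold changes on both sides of 0 without CDK12KO library 2, with a median of 0.16, and of -0.01 with it. CLK1 (chr2:200853009-200864744), an SR protein kinase whose own transcript is held back by retained introns, had 27.3, 18.6 and 29.9 CPM in CDK12KO, against 23.5, 22.1 and 23.5 CPM in VEC. Libraries 1 and 3 were above all VEC libraries and library 2 was below all of them. Without library 2 CLK1 rose by 0.31 ± 0.10 on the log2 scale (95% interval 0.089 to 0.525, edgeR adjusted p = 0.0452), and with it the log2 fold change was 0.14 ± 0.19 (edgeR adjusted p = 0.651). The plot of single genes by library shows the pattern beside those of SRRM2, SON and CPSF3.

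CLK2 had 50.8, 23.4 and 47.6 CPM in CDK12KO, against 43.7, 41.4 and 46.1 CPM in VEC, with the same split of libraries as CLK1 (0.17 ± 0.09 without library 2, edgeR adjusted p = 0.204). CLK3 had 88.6, 114 and 90.5 CPM in CDK12KO, against 103, 97.0 and 98.6 CPM in VEC, so that library 2 was the highest and libraries 1 and 3 were the lowest (-0.16 ± 0.07, edgeR adjusted p = 0.129). CLK4, the least abundant, had 8.26, 5.91 and 8.74 CPM in CDK12KO, against 8.60, 6.38 and 7.86 CPM in VEC, and its groups overlap. The CLK1 call passed in 5 of 11 alternatives without library 2, with adjusted p between 0.0163 and 0.368. It missed with DESeq2 (adjusted p = 0.0636), without scaling factors (0.0881), and without VEC library 1 (0.0768), VEC library 3 (0.0847), CDK12KO library 1 (0.128) or CDK12KO library 3 (0.368) in edgeR.

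**Figure D2:**
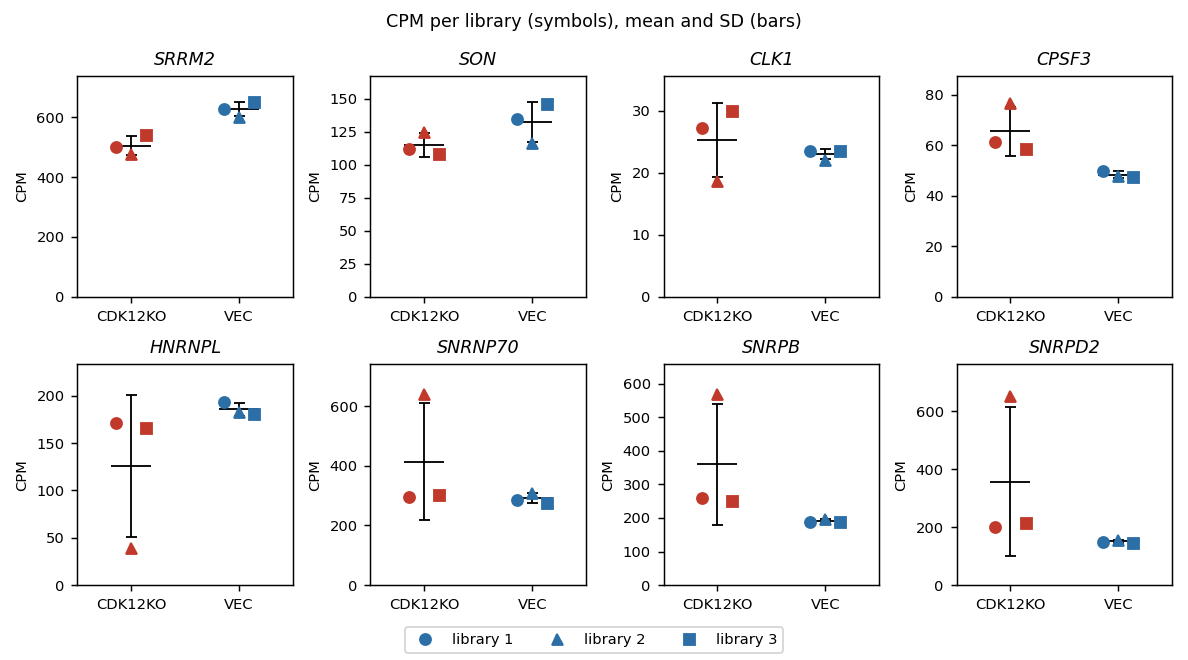
CPM in each library for SRRM2, SON, CLK1, CPSF3, HNRNPL, SNRNP70 and, outside the 49 genes, SNRPB and SNRPD2, with CDK12KO (red) left of VEC (blue). Circles, triangles and squares are libraries 1, 2 and 3, bars are the mean and SD of 3 libraries, axes start at 0, and the CDK12KO triangle is the lowest symbol for HNRNPL (38.8 CPM) and the highest for SNRNP70 (640.4 CPM).

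Among the 18 cleavage and polyadenylation factors CPSF3 passed without CDK12KO library 2, and the median log2 fold change of the group was 0.02 without library 2 and -0.03 with it. CPSF3 (chr2:9423568-9473101), the CPSF-73 endonuclease, had 61.3, 76.6 and 58.4 CPM in CDK12KO, against 49.9, 47.9 and 47.2 CPM in VEC. Every CDK12KO library was above every VEC library, and library 2 was the highest. Its log2 fold change was 0.30 ± 0.08 (95% interval 0.130 to 0.472, edgeR adjusted p = 0.0137) without library 2 and 0.44 ± 0.14 with it (edgeR adjusted p = 0.191). The call was lost when CDK12KO library 1 (edgeR adjusted p = 0.194) or 3 (0.0825) was left out as well, and it held in 9 of 11 alternatives, with adjusted p between 0.00028 and 0.194. Limma-voom called CPSF3 and CSTF3 and DESeq2 called CPSF3 among the 18.

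CPSF2, the catalytically inactive partner of CPSF3, was on the other side. It had 117, 127 and 121 CPM in CDK12KO, against 136, 129 and 135 CPM in VEC, with all CDK12KO libraries below all VEC libraries (-0.17 ± 0.07 without library 2, edgeR adjusted p = 0.0873). CPSF4, which reads the AAUAAA signal together with WDR33, had 74.5, 118 and 73.1 CPM in CDK12KO, against 71.7, 72.5 and 66.5 CPM in VEC. Library 2 stood far above the rest, and the log2 fold change without it was 0.07 ± 0.08 (edgeR adjusted p = 0.599). Over the 6 CPSF subunits (CPSF1 to CPSF4, FIP1L1 and WDR33) the median was 0.01 without library 2 and -0.02 with it.

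CSTF3, the scaffold subunit of CstF, lay at the threshold. It had 51.5, 59.8 and 46.2 CPM in CDK12KO, against 40.4, 42.6 and 39.2 CPM in VEC, and all CDK12KO libraries were above all VEC libraries. The log2 fold change was 0.26 ± 0.09 without library 2 (edgeR adjusted p = 0.0503) and 0.37 ± 0.13 with it (edgeR adjusted p = 0.211), and it passed in 4 of 11 alternatives without library 2, with adjusted p between 0.00111 and 0.470. The exons of CSTF3 overlap other genes over 14.5% of their length. The 3 CstF subunits had a median of 0.18 without library 2 and 0.12 with it.

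The CFIm subunits (NUDT21, CPSF6 and CPSF7), which favour distal poly(A) sites, had a median of 0.05 without library 2 and -0.05 with it, and missed the threshold in edgeR, DESeq2 and limma-voom. The CFIIm subunits PCF11 and CLP1, which link cleavage to termination, had a median of 0.17 without library 2 and 0.03 with it, and missed it likewise. PCF11 had 52.8, 31.6 and 56.9 CPM in CDK12KO, against 52.5, 44.5 and 54.2 CPM in VEC, with library 2 below the rest. XRN2, the exonuclease that ends transcription behind the cut, had 59.6, 29.3 and 56.4 CPM in CDK12KO, against 64.4, 60.7 and 60.6 CPM in VEC. All CDK12KO libraries of XRN2 were lower, libraries 1 and 3 by little (-0.10 ± 0.08 without library 2, edgeR adjusted p = 0.420). The median of XRN2, SYMPK, PABPN1 and RBBP6 was -0.06 without library 2 and -0.12 with it.

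**Figure D3:**
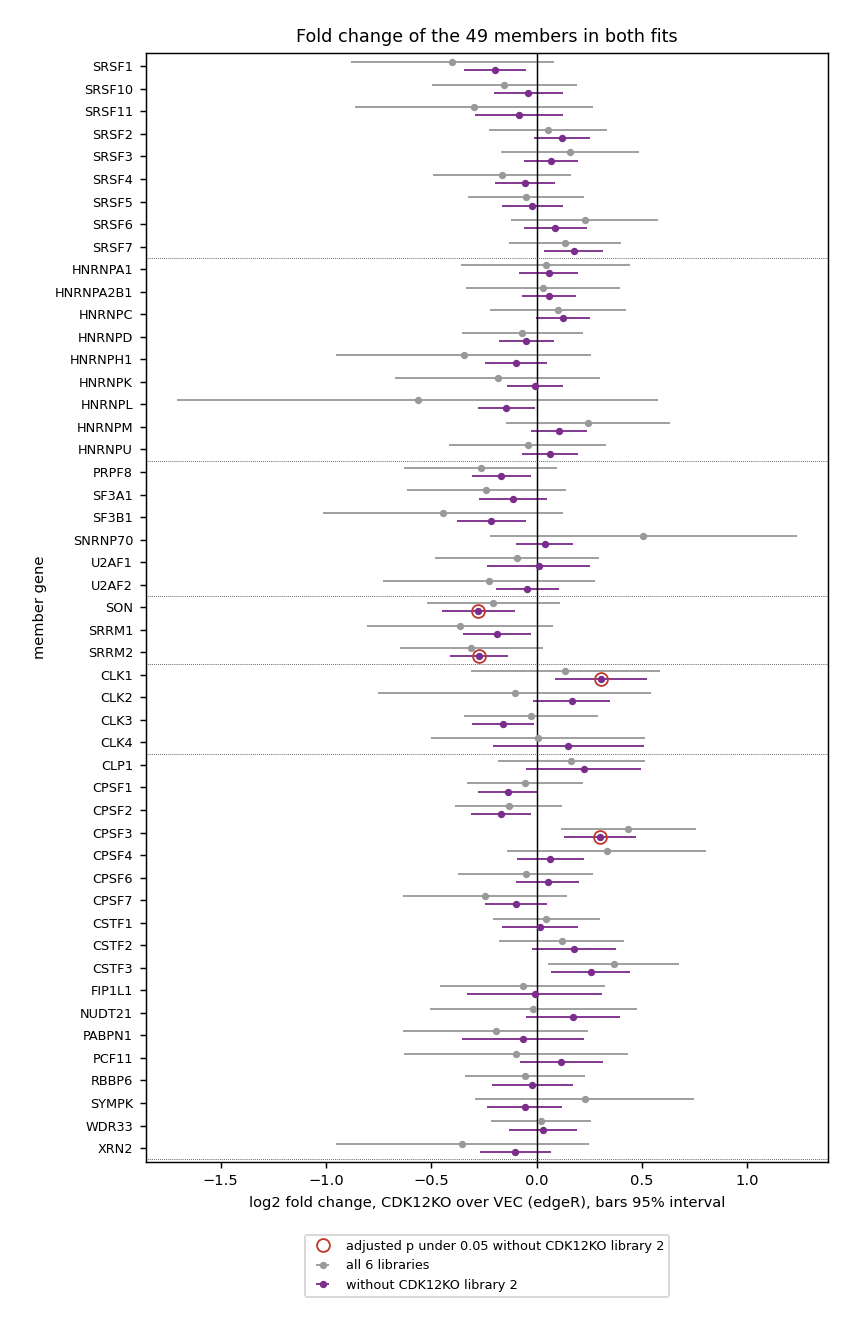
Log2 fold change, CDK12KO over VEC, of all 49 genes (edgeR), ordered by role, with 95% intervals. Grey points use all 6 libraries and purple points leave out CDK12KO library 2; red rings mark the 4 genes with adjusted p under 0.05 without that library, and the purple intervals of all genes lie between -0.45 and 0.525.

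Counted over all 49 genes, the differences between the lines were small once CDK12KO library 2 was left out, and the number past the threshold, 4, moved between 0 and 14 when a further library was left out. The log2 fold changes ran between -0.28 and 0.31, 24 of 49 were above 0, and their median was -0.01, the same as for all tested genes at this rounding. The median SE was 0.07, where it was 0.14 over all tested genes. CDK12KO libraries 1 and 3 did not overlap the VEC libraries for 23 of 49 genes (46.9%), 12 above and 11 below, where 47.2% of all tested genes did not overlap. With all 3 CDK12KO libraries 14 of 49 (28.6%) did not overlap, 6 above and 8 below, where 39.4% of all genes did not overlap; the differences between these shares were not tested. In RNA from bulk cells, fewer cells with a transcript and less of it per cell cannot be told apart.

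CDK12KO library 2 departed from the other 5 libraries in most of these genes. It lay outside the range of the other 5 libraries for 40 of the 49 genes (81.6%), 11 above and 29 below, where 76.9% of all tested genes lay outside, 37.4% above and 39.6% below. In 18 genes (36.7%, where 51.4% of all tested genes) it was off by more than 0.5 log2 units relative to the mean of libraries 1 and 3, and the difference between the shares was not tested. Besides HNRNPL, those far below included CLK2 (-1.07), XRN2 (-0.98), HNRNPH1 (-0.95) and SF3B1 (-0.87), and the 3 above were SNRNP70 (1.09), SYMPK (0.72) and CPSF4 (0.67). The median over the 49 genes was -0.20, where it was -0.04 over all tested genes.

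By role, library 2 was below the range of the other 5 for 6 of 9 SR proteins, 6 of 9 hnRNPs, 5 of 6 core spliceosome genes, 2 of 3 speckle genes, 3 of 4 CLK kinases and 7 of 18 cleavage and polyadenylation factors. It was above it for 6 of the cleavage and polyadenylation factors. Group medians of the shift from the VEC mean were -0.08, -0.52 and -0.09 in CDK12KO libraries 1, 2 and 3 for the core spliceosome. For the CLK kinases they were 0.17, -0.33 and 0.17, so library 2 was on the other side of 0. For the speckle genes they were -0.24, -0.39 and -0.29, all on the same side. The plot of group medians by library shows the red triangles apart from the red circles and squares for the core spliceosome and the CLK kinases, and nearer to them for the speckle genes.

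**Figure D4:**
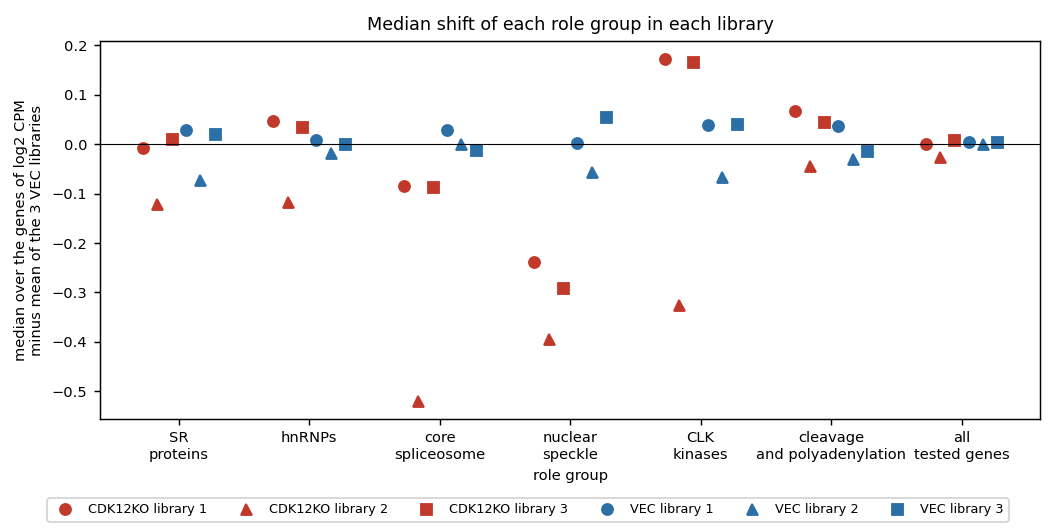
Median over the genes of each role group of log2 CPM minus the mean of the 3 VEC libraries, for each library. CDK12KO (red) is drawn left of VEC (blue), shapes are libraries 1 to 3, and the speckle group is the one in which all 3 CDK12KO libraries lie below -0.2, while in all tested genes every library lies between -0.03 and 0.01.

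Merged exon length varied with the difference between the lines across these genes. Spearman's rho between length and the shift of CDK12KO libraries 1 and 3 over VEC was -0.46 across the 49 genes and -0.22 across 15250 tested genes with an annotated length. For the shift of library 2 over libraries 1 and 3 it was 0.06 across the 49 genes and -0.33 across all genes. Genes are not independent replicates and share libraries, so these values are descriptions. The 3 speckle genes were the longest group, with a median of 13172 bases, where the 49 genes had 6329 and all genes 4386. The part of length in the calls was not tested.

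**Figure D5:**
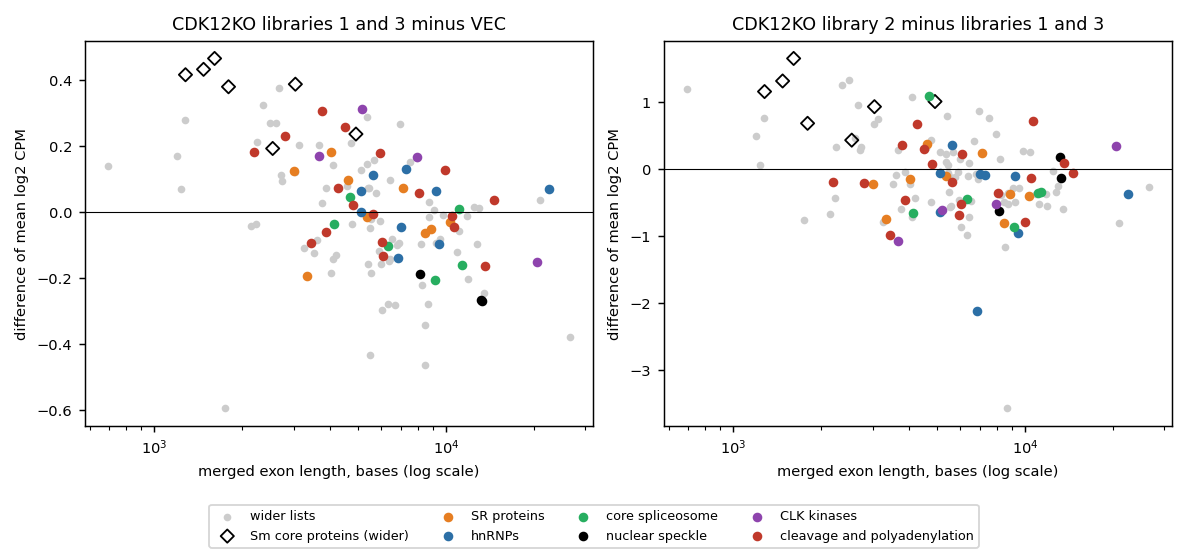
Merged exon length (bases, log axis) against the difference in mean log2 CPM, for CDK12KO libraries 1 and 3 minus VEC (left panel) and CDK12KO library 2 minus CDK12KO libraries 1 and 3 (right panel). Colours are role groups, grey points are other genes of the same machinery and open diamonds are the 7 Sm core proteins. In the left panel the speckle genes (black) lie at the long, low end and most Sm genes at the short, high end, and the right panel has a wider vertical axis, with HNRNPL the lowest coloured point at -2.12.

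Another 87 genes of the same machinery were counted beside the 49, of which 85 were tested. Without CDK12KO library 2, 19 of 85 (22.4%) passed in edgeR, 14 higher and 5 lower, against the 19.1% of all tested genes given above. Without scaling factors 11 were higher and 7 lower, where 17.6% of all genes passed in either direction. With all 6 libraries edgeR called 0 of 85, where 0.596% of all tested genes passed. In that fit 16 of 85 had an unadjusted p under 0.05, where 21.7% of all tested genes did. DESeq2 called 1 of 85 (RPRD1A) and limma-voom 0, where they called 6.21% and 0.665% of all genes. Without CDK12KO library 2, 13 of the 41 snRNP and spliceosome genes were higher (31.7%, where 10.2% of all tested genes were) and 0 lower in edgeR. DESeq2 called 10 of the 41 and limma-voom 12, where they called 16.1% and 18.7% of all genes in either direction. The differences between these shares were not tested. The other lists had 2 lower of 18 hnRNPs (HNRNPA3 and HNRNPR), 1 lower of 7 SR proteins and SR kinases (DYRK1A) and, of 19 genes at the 3′ end, 1 higher (SSU72) and 2 lower (RPRD1A and SCAF8).

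The genes that rose mainly encode snRNP proteins. The Sm proteins form the ring that U1, U2, U4 and U5 snRNAs carry, and SNRPD2 among them had 202, 654 and 215 CPM in CDK12KO, against 148, 157 and 147 CPM in VEC (log2 fold change 0.46 ± 0.07 without library 2, edgeR adjusted p = 6.59e-05). SNRPB, which encodes SmB and its longer isoform, had 258, 568 and 252 CPM in CDK12KO, against 188, 197 and 187 CPM in VEC (0.41 ± 0.06, edgeR adjusted p = 0.000123). For both genes all CDK12KO libraries were above all VEC libraries and library 2 was far above the rest.

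SNRPE had 165, 414 and 167 CPM in CDK12KO, against 115, 128 and 127 CPM in VEC (0.43 ± 0.07 without library 2, edgeR adjusted p = 0.000189). SNRPF had 138, 259 and 134 CPM in CDK12KO, against 104, 101 and 106 CPM in VEC (0.38 ± 0.07, edgeR adjusted p = 0.000492), and SNRPG had 69.4, 111 and 68.2 CPM in CDK12KO, against 49.6, 51.1 and 58.2 CPM in VEC (0.37 ± 0.08, edgeR adjusted p = 0.00429). These 3 Sm genes had no overlap between the groups. SNRPB, SNRPD2, SNRPE and SNRPF passed in 11 of 11 alternatives without library 2, and SNRPG missed when CDK12KO library 1 was left out (edgeR adjusted p = 0.0709, the highest of its alternatives, whose lowest was 3.31e-06). The 7 Sm genes were singled out after their values were seen; 6 of 7 passed, SNRPD1 (0.23) with a call lost without CDK12KO library 1 (0.156) or 3 (0.214) or VEC library 3 (0.0853), SNRPD3 did not (0.18 ± 0.09, edgeR adjusted p = 0.180), and their median was 0.38 without library 2 and 0.77 with it. In CDK12KO libraries 1, 2 and 3 the Sm median lay 0.41, 1.32 and 0.37 above the VEC mean, and their median exon length was 1795 bases. With all 6 libraries the log2 fold changes were 1.24 ± 0.45 for SNRPD2, 1.01 ± 0.36 for SNRPE, 0.91 ± 0.32 for SNRPB, 0.77 ± 0.26 for SNRPF and 0.64 ± 0.21 for SNRPG, with edgeR adjusted p between 0.199 and 0.213. Several Sm genes have close pseudogenes, and reads mapping to several places are not in their counts.

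Genes for proteins specific to U1 and U2 snRNPs were also among those that rose without library 2. SNRPA, the U1 A protein, had 103, 251 and 107 CPM in CDK12KO, against 80.8, 89.0 and 81.3 CPM in VEC, with no overlap (0.32 ± 0.07, edgeR adjusted p = 0.00401), and it missed the threshold without CDK12KO library 3 (edgeR adjusted p = 0.0929, with a range of 1.46e-08 to 0.0929). The remaining 6, named after their values were seen, were SNRPC of U1 (0.28), SNRPA1, SNRPB2 and SF3A3 of U2 (0.20, 0.26 and 0.20) and PRPF3 and PRPF31 of the U4/U6.U5 tri-snRNP (0.28 and 0.36), as log2 fold changes. SNRPC and PRPF3 lost their calls without CDK12KO library 1 or 3 (edgeR adjusted p between 0.0548 and 0.203). SNRPA1, SNRPB2, SF3A3 and PRPF31 lost theirs without CDK12KO library 1 or 3 or VEC library 1 or 3 (edgeR adjusted p between 0.0509 and 0.441). SNRPA1, SNRPB2 and SF3A3 also missed with DESeq2 (adjusted p = 0.0626, 0.0657 and 0.0583) and, in edgeR, without scaling factors (0.0843, 0.0937 and 0.0546). SNRPA1 missed with limma-voom too (adjusted p = 0.0552), and SNRPA1 and SNRPB2 missed in edgeR without the filter on low counts (0.0596 and 0.0539). SNRNP70, the third U1-specific protein, did not pass, as given above.

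The genes that fell without library 2 were fewer. RPRD1A, which binds the C-terminal domain of RNA polymerase II, had 39.7, 27.4 and 37.3 CPM in CDK12KO, against 57.1, 47.2 and 55.4 CPM in VEC. Its groups do not overlap (-0.47 ± 0.10 without library 2, edgeR adjusted p = 0.00196), and it missed without CDK12KO library 3 (edgeR adjusted p = 0.0535, with a range of 3.98e-12 to 0.0535). HNRNPA3 had 139.7, 77.8 and 142 CPM in CDK12KO, against 176, 177 and 167 CPM in VEC, with library 2 the lowest (-0.30 ± 0.07, edgeR adjusted p = 0.00287); it missed without CDK12KO library 1 (0.0699) or 3 (0.0609) in edgeR, with a range of 1.91e-07 to 0.0699. With all 6 libraries RPRD1A had a log2 fold change of -0.61 ± 0.17 and HNRNPA3 one of -0.53 ± 0.23 (edgeR adjusted p = 0.165 and 0.236).

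SCAF8, an RNA polymerase II-binding factor that restrains early polyadenylation, had 13.7, 11.6 and 15.8 CPM in CDK12KO, against 22.3, 16.8 and 21.0 CPM in VEC (-0.45 ± 0.14 without library 2, edgeR adjusted p = 0.0255). SSU72, a phosphatase of the C-terminal domain, had 376, 681 and 371 CPM in CDK12KO, against 311, 341 and 282 CPM in VEC (0.26 ± 0.07, edgeR adjusted p = 0.0161). SCAF8 was lower and SSU72 higher in every CDK12KO library than in any VEC library. HNRNPR had 52.2, 4.22 and 49.7 CPM in CDK12KO, against 69.8, 55.3 and 61.0 CPM in VEC, with library 2 lower than all others by far (-0.29 ± 0.10, edgeR adjusted p = 0.0377). DYRK1A, a kinase of splicing factors, had 25.6, 20.4 and 23.4 CPM in CDK12KO, against 33.2, 28.2 and 34.4 CPM in VEC, without overlap (-0.39 ± 0.11, edgeR adjusted p = 0.0185). These 4 genes lost their calls when CDK12KO library 1 or 3 or VEC library 1 or 3 was left out, with edgeR adjusted p between 0.0531 (SSU72 without VEC library 1) and 0.274 (HNRNPR without CDK12KO library 3). HNRNPR also missed with DESeq2 (adjusted p = 0.0502).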

How the data were processed

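The authors deposited, for each of the 6 libraries, whole-number read counts per gene (62696 gene rows) after 4 summary rows, not normalised; FastQC, STAR and GRCh38 are named per the submitters' processing notes, with versions and annotation release not given in the sources used here. The 2 strand-specific columns summed to ratios of 1.02 to 1.04, so the unstranded counts were used. In these, reads over exons of 2 genes on opposite strands are ambiguous and counted for neither gene. The summary rows were kept out of every fit. Unmapped reads were 4.51 ± 0.654% of the total in CDK12KO and 5.39 ± 0.135% in VEC, and reads at several places 7.75 ± 1.15% and 7.85 ± 1.08%. Reads outside annotated exons were 5.06 ± 1.30% and 6.93 ± 0.715%, and ambiguous reads 12.9 ± 1.26% and 11.3 ± 0.255% (mean ± SD, n = 3 each).

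The test was edgeR 4.0.16 in R 4.3.3, with filterByExpr with a minimum count of 10, TMM factors, a robust quasi-likelihood fit without a block, and Benjamini-Hochberg adjustment over all tested genes at 0.05, once on all 6 libraries (15783 genes) and once without CDK12KO library 2 (16339 genes). Each SE was taken from the fold change and its F statistic. CPM use the TMM factors of all 6 libraries. Alternatives were other scaling (DESeq2 size factors, none), no filter, DESeq2 1.42.0, limma-voom (limma 3.58.1), a replicate block and leaving out each library; scripts were tested on simulated data. Between any 2 libraries of a group, chi-square divided by its degrees of freedom was 3.27 or more over genes with 20 or more counts, so none was a repeat of another within sampling noise. Gene positions and merged exon lengths are from GENCODE 29 on GRCh38, and 8 of the 49 genes overlap other genes' exons over more than 10% of their own.

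The genes and lists were chosen with earlier results of these data known. Values per library are given for each gene past the threshold in either fit, and in each role group for those with the 2 smallest p without CDK12KO library 2 and that with the highest mean CPM; of the wider lists, for up to 8 with the smallest p. Others named were chosen after their values were seen.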

Additional observations from a re-analysis of the deposited data

How the results depend on the processing

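Of the alternative values of counts and medians, 144 stayed close to the reported one and 40 moved. The sign of a median near 0 changed in 9 of 138, for the hnRNPs, CLK kinases and cleavage and polyadenylation factors with all 6 libraries and the SR proteins without CDK12KO library 2. Of those of single genes, 501 kept their side of the threshold, 33 passed where the reported value did not and 18 the other way. In 11 the sign changed (SRSF3, SRSF7, HNRNPA1, HNRNPC, CLK1 and CLK3 with all 6 libraries, U2AF2 without CDK12KO library 2), and neither value had passed in any of these. With all 6 libraries, leaving out single libraries gave 0 to 4 of the 49 genes and 0 to 19 of the wider genes past the threshold, the highest both without CDK12KO library 2, and DESeq2 called 1 wider gene. Without CDK12KO library 2, leaving out a further library gave 0 to 14 of the 49 genes (14 without VEC library 2, 2 without VEC library 1 or 3, 1 without CDK12KO library 3, and 0 without CDK12KO library 1, where 7 had an unadjusted p under 0.05 in edgeR) and 5 to 40 of the wider genes. In the fits with 1 CDK12KO library that library is assumed to vary like the others. Over all tested genes edgeR called 94 with all 6 libraries, 363 without the filter, 39 without scaling factors, 5 with the block and 4 to 3123 with a library left out, and DESeq2 called 980. Without CDK12KO library 2 it called 3123, 5540 with the block and 1134 to 4703 with a further library left out.

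Without scaling factors the all-gene median with 6 libraries moved to -0.18, and group medians moved with it, to -0.22 for SR proteins, -0.19 for hnRNPs, -0.48 for speckle genes and -0.18 for cleavage and polyadenylation factors; without CDK12KO library 2 the medians became 0.0381 for hnRNPs and -0.0979 for core spliceosome genes. Over left-out libraries the medians with all 6 ranged from -0.0975 to -0.0138 (SR proteins), -0.0789 to 0.0571 (hnRNPs), -0.328 to -0.0785 (core spliceosome), -0.36 to -0.275 (speckle), -0.075 to 0.158 (CLK) and -0.0417 to 0.0236 (cleavage and polyadenylation). Without CDK12KO library 2 they ranged from -0.0584 to 0.0265, 0.0204 to 0.0662, -0.104 to -0.0566, -0.309 to -0.193, 0.0809 to 0.217 and 0.0138 to 0.0644 in the same order.

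Same-numbered libraries deviated from their group means with correlations of 0.135, 0.194 and 0.0841, which do not show that the numbers pair the samples. The CDK12KO means include library 2, which stood apart, so these correlations could miss a pairing. With the replicate block and without CDK12KO library 2, 20 of the 49 genes (40.8%) passed, 7 higher and 13 lower, where 33.9% of all genes did. Of the 85 wider genes tested 46 passed, beside that same 33.9%, and these differences were not tested. The medians were 0.0431 for hnRNPs, -0.0555 for core spliceosome genes and 0.0814 for CLK kinases. VEC library 2 was alone in its block in this fit, so it had no part in the estimated difference between the lines. With all 6 libraries the block gave 0 of the 49, where 0.0317% of all genes passed. The cause of these changes was not tested. The median SE of the log2 fold change over the 49 genes was 0.159 with all 6 libraries and 0.0716 without CDK12KO library 2, and log2 fold changes of -0.20 (SRSF1) and -0.21 (SF3B1) missed the threshold without CDK12KO library 2.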
